A study of Homo sapiens with 3 samples.

Results

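The aminoacyl-tRNA synthetases are the enzymes that join each amino acid to its tRNA. They were chosen by gene symbol, as 19 enzymes that act in the cytosol and 16 that act in mitochondria and whose symbols end in 2, so that 35 genes of the 19775 genes named on the array were followed. Of these 35, 32 could be measured, 17 of the cytosol and 15 of mitochondria. The probe sets of MARS1, QARS1 and TARS2 are each annotated to more than 1 gene, so these 3 enzymes have no value. Expression was measured on 3 arrays of HCT-116, an established line of human colorectal cancer cells, grown in RPMI medium with fetal bovine serum. The arrays held RNA of SCD1-WT cells treated with DMSO for 24 h, of SCD1-WT cells given an inhibitor of the stearoyl-CoA desaturase SCD1 for 24 h, which the methods name as T-3764518 at 100 nM, and of cells labelled SCD1-KO (knockout cells here), in which CRISPR-Cas9 with guides to SCD deleted a stretch of the gene. The labels of the SCD1-KO array give neither a vehicle nor a time, and the methods have these cells in DMSO. Knockout cells are a clone picked by PCR after seeding at limiting density, so the effect of the deletion and differences between clones cannot be told apart.

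Every condition had 1 array, so nothing checks a difference against repeated cultures and no p-value is given. The values are MAS5 signals on a linear scale, which were taken to log2. A probe set was used where the mean of its log2 signals reached the median over the whole array, which is 56.6 as a signal. The value of a gene is the median log2 ratio of its used probe sets against the DMSO array. The filter left 12321 genes. Genes are called higher or lower at 1.5-fold, and 2-fold calls are given beside them. The only error that can be given is the SD between probe sets of the same gene, which was 0.16 to 0.39 on the log2 scale at the signals of the synthetases for T-3764518 and 0.17 to 0.41 for knockout cells, and it does not cover differences between cultures. The median log2 ratio of all tested genes was -0.087 under T-3764518 and -0.011 in knockout cells. The arrays have the same trimmed mean, but their median signals were 68.8, 56.7 and 62.4, so scaling them to 1 median adds 0.28 to every log2 ratio under T-3764518 and 0.14 in knockout cells. SCD, the targeted gene, was not lower on the SCD1-KO array in any of its 4 probe sets, at 1.01-fold to 2.56-fold of DMSO, against 1.65-fold to 8.58-fold under T-3764518. Where these probes lie relative to the deleted stretch is not known here, so they do not check the label. The paper reports that a western blot of its SCD1-KO cells showed no SCD1 protein, and that their SCD mRNA was higher. The cells carried epithelial keratin mRNA on all arrays, with KRT18 at signals from 23407 to 28119, while the leukocyte marker PTPRC lay under the signal filter. Of 8 listed epithelial markers 7 passed that filter and CDX1 did not. CDX2 and VIL1 were near it, at DMSO signals of 59.6 and 73.1. Of 6 listed markers of other cells 4 passed it, namely VIM, COL1A1, PECAM1 and DCN. COL1A1 had signals from 526 to 697, PECAM1 from 142 to 253 and DCN from 46.1 to 81.9. The SCD1-KO array stood apart in other markers, with EPCAM 2.46-fold and CDH1, the gene of E-cadherin, 2.78-fold lower and VIM, the gene of vimentin, 4.45-fold higher than with DMSO. Their part in the synthetase values was not tested. RNA was pooled over each culture, so fewer cells with an mRNA and less mRNA per cell cannot be told apart.

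A synthetase activates its amino acid with ATP and transfers it to the matching tRNA. Cytosolic and mitochondrial translation mostly use separate enzymes, all encoded in the nucleus, although GARS1 and KARS1 supply both compartments from the same gene. Several cytosolic enzymes are held in a multi-synthetase complex, and the rest are free or in small assemblies. When amino acids run short or the endoplasmic reticulum is stressed, phosphorylation of eIF2α raises translation of the transcription factor ATF4, and many cytosolic synthetase genes are known among its targets.

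Cytosolic synthetase mRNA was higher in SCD1-WT cells under T-3764518, led by WARS1, AARS1 and GARS1. The log2 ratio was above 0 for 14 of the 17 measured cytosolic enzymes, against 41.0% of all tested genes, and the median was 0.37. At 1.5-fold, 5 of the 17 were higher (6.62% of all tested genes) and 0 lower (12.3%), and at 2-fold 2 were higher (2.18%) and 0 lower (3.30%). In knockout cells the median was 0.33, 12 of the 17 lay above 0 (48.9% of all tested genes), 3 were at least 1.5-fold higher (9.95%), 0 were at least 1.5-fold lower (11.4%), and at 2-fold 1 was higher (3.12%) and 0 lower (3.93%). Both ratios use the same DMSO array. With the arrays scaled to 1 median, 11 of the 17 were at least 1.5-fold higher under T-3764518, among 15.9% of all tested genes higher and 4.92% lower, and 6 in knockout cells, among 15.0% higher and 7.89% lower.

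**Figure D1:**
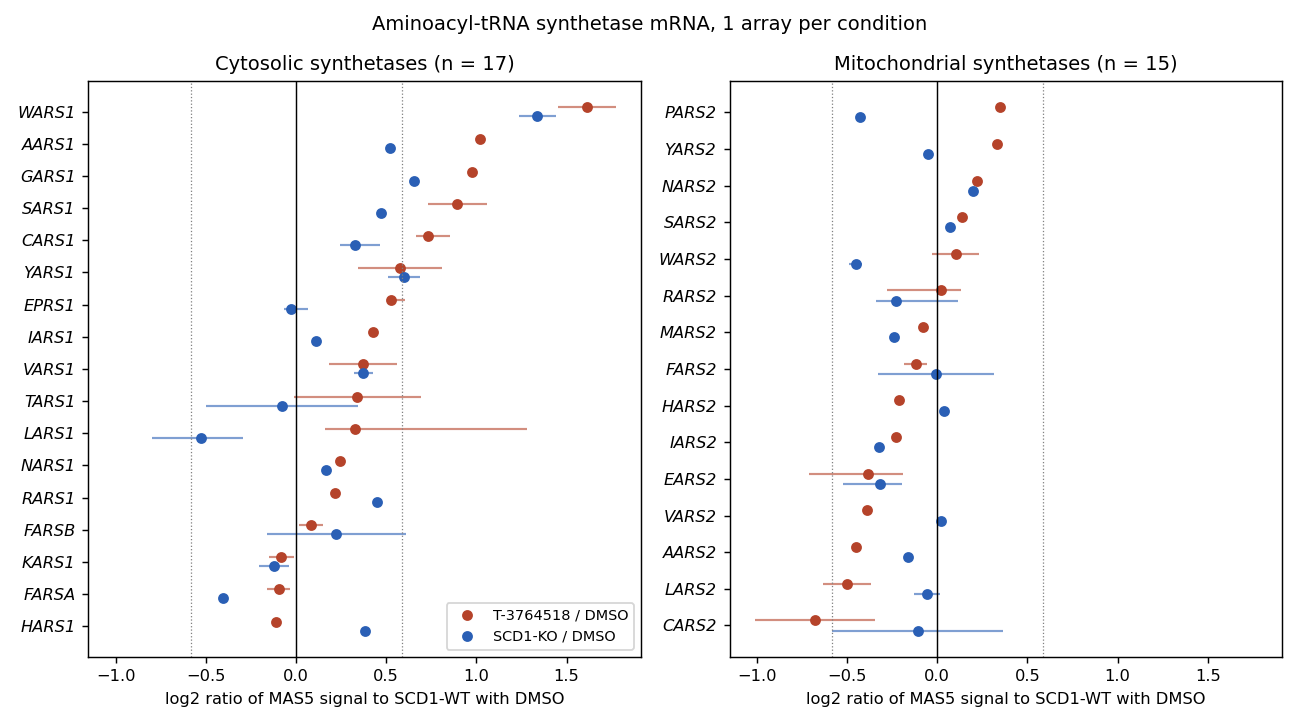
The x axis is the log2 ratio of the MAS5 signal to SCD1-WT cells with DMSO for the 17 cytosolic and 15 mitochondrial enzymes, with T-3764518 in red and SCD1-KO in blue; points are gene medians, lines run from the lowest to the highest used probe set, and dotted lines mark 1.5-fold. WARS1 lies at 1.61 and 1.34, and no mitochondrial enzyme reaches the dotted line on the right.

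WARS1, the tryptophanyl-tRNA synthetase, was read by a pair of probe sets. The first had signals of 1070 with DMSO, 3662 under T-3764518 and 2903 in knockout cells. The second had signals of 1726, 4731 and 4072. Both probe sets were lowest with DMSO and highest under T-3764518, which gave 3.06-fold and 2.53-fold for the gene. These ratios exceed those of 99.3% of all tested genes under T-3764518 and 98.5% in knockout cells. WARS1 is also known as a gene that interferon-γ induces. Of 7 interferon-γ targets on the list used, 2 were measured, and they differed in direction. IRF1, a transcription factor, was 1.25-fold under T-3764518 and 1.49-fold in knockout cells, at signals of 495, 619 and 739. IDO1, an enzyme that degrades tryptophan, was 1.68-fold lower under T-3764518 and 1.96-fold lower in knockout cells, at signals of 122.8, 73.2 and 62.8, where the SD between probe sets is 0.61 and 0.66 on the log2 scale.

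AARS1, the alanyl-tRNA synthetase, had signals of 5030 with DMSO, 10186 under T-3764518 and 7225 in knockout cells, which is 2.03-fold and 1.44-fold. GARS1, which charges glycine tRNA in both compartments, had signals of 6974, 13697 and 10970, which is 1.96-fold and 1.57-fold. For these enzymes the SCD1-KO value lay between the other arrays. SARS1 charges serine tRNA and also the tRNA on which selenocysteine is made. Its brighter probe set had signals of 7022, 11644 and 9575 and the dimmer one 898, 1872 and 1263, so SARS1 was 1.86-fold under T-3764518 and 1.38-fold in knockout cells.

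CARS1, the cysteinyl-tRNA synthetase, was read by 3 probe sets in the same order of arrays. Their signals were 9885, 15690 and 13657 for the brightest, 2003, 3328 and 2512 for the middle one, and 1353, 2446 and 1604 for the dimmest. The gene was 1.66-fold under T-3764518 and 1.25-fold in knockout cells, where it was not called. YARS1, the tyrosyl-tRNA synthetase, was just short of the call under T-3764518 at 1.49-fold and just over it in knockout cells at 1.52-fold. Its probe sets differed, with signals of 5717, 10037 and 8150 for the bright one and 168, 214 and 271 for the dim one. The bright probe set alone gave 1.76-fold under T-3764518 and 1.43-fold in knockout cells, which is short of the call. The dim one gave 1.27-fold and 1.61-fold, so the call in knockout cells rests on it.

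**Figure D2:**
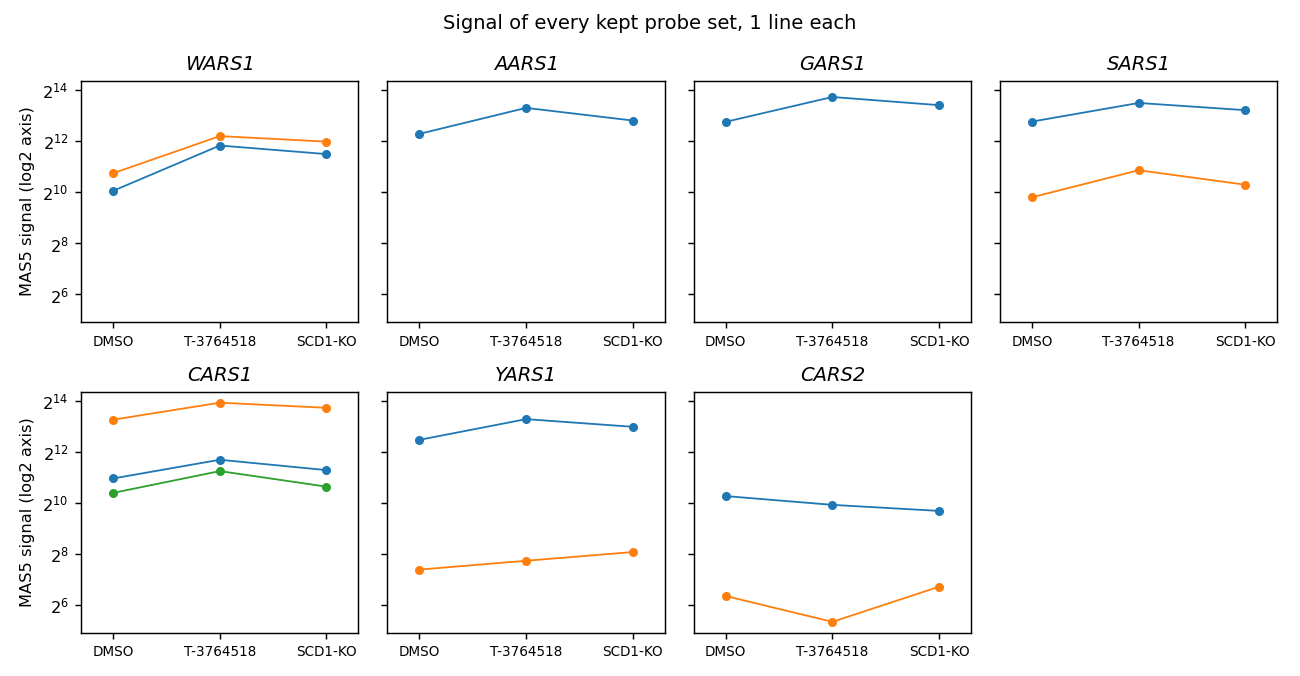
The y axis is the MAS5 signal on a log2 axis and the x axis the 3 arrays, with 1 line for each used probe set of the 7 synthetases at least 1.5-fold from DMSO in either ratio. WARS1, AARS1, GARS1, SARS1 and CARS1 have their lowest signal with DMSO and their highest under T-3764518 in every probe set, while CARS2 is lower under T-3764518.

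The remaining cytosolic enzymes were within 1.5-fold of DMSO in both ratios. EPRS1, a single protein that charges both glutamate and proline, had log2 ratios of 0.53 under T-3764518 and -0.029 in knockout cells. IARS1, the isoleucyl enzyme, had 0.43 and 0.11, VARS1, the valyl enzyme, 0.37 and 0.37, NARS1, the asparaginyl enzyme, 0.24 and 0.17, and RARS1, the arginyl enzyme, 0.22 and 0.45. For TARS1, the threonyl enzyme, the median of 0.34 and -0.076 hid a difference between probe sets. The bright TARS1 probe set had signals of 7465, 12046 and 9483, or 1.61-fold under T-3764518, and the dim one 85.5, 84.7 and 60.6.

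Near or under their DMSO level under T-3764518 were FARSA and FARSB, the subunits of the phenylalanyl enzyme, at log2 ratios of -0.096 and 0.084, HARS1, the histidyl enzyme, at -0.11, and KARS1, the lysyl enzyme, at -0.081. All 4 lie above 0 when the arrays are scaled to 1 median. In knockout cells the same genes lay at -0.41, 0.22, 0.38 and -0.12. LARS1, the leucyl enzyme, differed in direction, with log2 ratios of 0.33 and -0.53. Its 4 probe sets were all higher under T-3764518 and all lower in knockout cells than with DMSO. The brightest had signals of 4605, 5934 and 3759 and the dimmest 196, 476 and 139.9.

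The members of the multi-synthetase complex and the other cytosolic enzymes were compared. The 5 measured enzymes of the complex, EPRS1, IARS1, LARS1, RARS1 and KARS1, had medians of 0.33 under T-3764518 and -0.029 in knockout cells, and 0 of them passed 1.5-fold in any direction. The 12 others had medians of 0.48 and 0.38 and held all 5 calls under T-3764518 and all 3 in knockout cells. Of all tested genes, 6.62% and 9.95% were higher by that much and 12.3% and 11.4% lower. With the arrays scaled to 1 median, EPRS1, at 0.81, IARS1, at 0.70, and LARS1, at 0.61, passed 1.5-fold under T-3764518, and RARS1, at 0.59, did in knockout cells. After that scaling 15.9% and 15.0% of all tested genes were higher by that much. AIMP1, a scaffold of the complex, had log2 ratios of 0.16 and -0.46. By catalytic class, the 8 measured class I enzymes had medians of 0.48 and 0.35 and the 9 of class II 0.24 and 0.22. Over 13 cytosolic synthetases that are often listed as ATF4 targets, 12 were measured, and their log2 ratios under T-3764518 ran from 0.24 to 1.61 with a median of 0.55. The 5 measured enzymes outside that list, FARSA, FARSB, HARS1, KARS1 and RARS1, ran from -0.11 to 0.22 with a median of -0.081. As gene medians, the ranges of these groups did not overlap. Their nearest members, NARS1 at 0.24 and RARS1 at 0.22, were closer than the SD between probe sets. Some single probe sets of the listed group lay below RARS1. These were the brighter VARS1 probe set at 0.18, a LARS1 probe set at 0.16 and the dim TARS1 probe set at -0.014. Of all tested genes, 6.62% were at least 1.5-fold higher in this ratio. In knockout cells the medians were 0.35 and 0.22 and the ranges overlapped, since LARS1, at -0.53, belongs to the listed group. These differences between groups of genes rest on 1 array per condition and have no test. The lists were chosen with earlier results of these data known, so the split into groups may not be independent of the values.

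ATF4 binds with C/EBP proteins at a composite element whose core reads TGATGNAA, with N for any base. This core was searched on both strands of RefSeq promoters (GRCh38.p14), each from 250 bases before to 50 bases after a transcription start. A match was found for 7 of the 16 cytosolic synthetases with a promoter in the table and for 1 of 14 mitochondrial ones. A gene with several promoters counts where any of them holds a match, and counted in this way 4.46% of all 27305 genes in the table held a match and 295 of them the form TGATGCAA, which 6 of the 7 cytosolic matches have. Over all 35116 promoters the shares were 3.62% and 0.866%. The windows around these 7 matches are shown because they carry this core in a group of cytosolic synthetase genes, of which MARS1 has no value here and the other 6 are described after the sequences. They are written 5′ to 3′ on the strand of the gene, and the capitals mark the match, which reads TTGCATCA, or TTTCATCA in GARS1, where the core lies on the other strand. The AARS1 window is chr16:70289656-70289723 on the minus strand, that of CARS1 chr11:3057418-3057455 on the minus strand, and that of GARS1 chr7:30594815-30594877 on the plus strand. The IARS1 window is chr9:92293698-92293740 on the minus strand, that of NARS1 chr18:57621815-57621844 on the minus strand, that of TARS1 chr5:33440937-33440974 on the plus strand, and that of MARS1 chr12:57488034-57488071 on the plus strand.
AARS1: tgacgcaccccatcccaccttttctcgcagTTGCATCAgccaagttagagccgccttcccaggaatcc
CARS1: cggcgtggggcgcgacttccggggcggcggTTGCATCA
GARS1: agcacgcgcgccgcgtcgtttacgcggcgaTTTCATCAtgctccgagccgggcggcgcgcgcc
IARS1: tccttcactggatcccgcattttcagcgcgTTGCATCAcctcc
NARS1: gcgccctcagatctacgctctcTGATGCAA
TARS1: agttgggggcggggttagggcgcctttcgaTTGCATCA
MARS1: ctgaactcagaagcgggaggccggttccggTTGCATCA

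In AARS1 the match began 187 bases before the start, in GARS1 33, in IARS1 13, in MARS1 4 and in CARS1 2 bases before it, and in TARS1 and NARS1 at bases 3 and 15 of the transcript. Where a gene had a pair of promoters in the table, as CARS1, GARS1 and TARS1 did, only 1 of them held the match. A match is a run of letters and does not show that a factor binds there.

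The 6 measured cytosolic enzymes with a match had log2 ratios from 0.24 to 1.02 under T-3764518, with a median of 0.58, and from -0.076 to 0.65 in knockout cells, with a median of 0.25. Of these 6, 3 were at least 1.5-fold higher under T-3764518 (6.62% of all tested genes) and 1 in knockout cells (9.95%). The 8 without one had medians of 0.15 and 0.30, with 2 and 1 at least 1.5-fold higher. WARS1, the most elevated of all, and SARS1 had no match in this window, and LARS1, VARS1 and YARS1 were not in the table of promoters. Among the mitochondrial enzymes the match was in YARS2, with the form TGATGGAA and log2 ratios of 0.33 and -0.051. Outside the synthetases, 282 tested genes held TGATGNAA. Of these, 12.1% were at least 1.5-fold higher under T-3764518, against 6.40% of the 9743 tested genes with a promoter and no match, and 16.0% against 9.43% in knockout cells. The median log2 ratio of the 282 was 0.029 under T-3764518 and -0.0024 in knockout cells, against -0.086 and -0.0059 without a match. Of the 74 genes outside the synthetases with TGATGCAA, 20.3% and 18.9% were at least 1.5-fold higher, with medians of 0.12 and -0.045. Shares at least 1.5-fold lower were not computed for the 282 or the 74 genes. The higher shares alone therefore do not tell a shift upward from a wider spread.

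**Figure D3:**
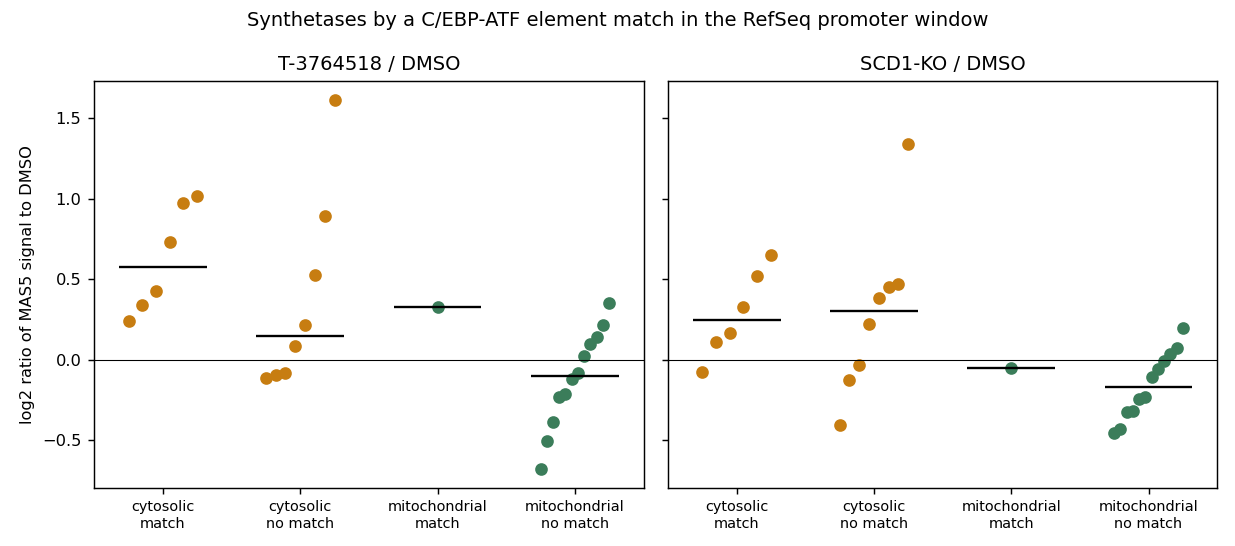
The y axis is the log2 ratio of the MAS5 signal to SCD1-WT cells with DMSO, with 1 point for each measured synthetase that has a RefSeq promoter, split by compartment and by a match to TGATGNAA; black bars are medians. The 6 cytosolic enzymes with a match all lie above 0 under T-3764518, from 0.24 to 1.02, and WARS1 is the highest point among those without one.

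Mitochondrial synthetase mRNA did not share the higher level. With T-3764518 the 15 measured enzymes had a median log2 ratio of -0.12, which is 0.033 under the median of all tested genes. When the arrays are scaled to 1 median it becomes 0.16, where that of all tested genes is 0.19. None was 1.5-fold higher (6.62% of all tested genes) and 1 was 1.5-fold lower (12.3%). After that scaling 2, PARS2 at 0.63 and YARS2 at 0.61, were 1.5-fold higher (15.9% of all tested genes) and 0 lower (4.92%). In knockout cells the median was -0.11, or 0.032 after that scaling, against 0.13 for all tested genes. Before scaling, 0 of the 15 were 1.5-fold higher (9.95% of all tested genes) or lower (11.4%). The range was -0.68 to 0.35 under T-3764518 and -0.45 to 0.20 in knockout cells.

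CARS2, the mitochondrial cysteinyl enzyme, was the enzyme called lower, at a log2 ratio of -0.68 under T-3764518, and this rests on a dim probe set. That probe set had signals of 82.1 with DMSO, 40.7 under T-3764518 and 105.7 in knockout cells, and the bright one had 1241, 977 and 829. With signals under 56.6 raised to that level CARS2 was at least 1.36-fold lower and no longer called. The dim CARS2 probe set was also the one nearest above the filter among the synthetases, at a mean signal of 70.7, and the nearest below it was a second probe set of AARS2 at 50.1.

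Next in order under T-3764518 were LARS2, the leucyl enzyme, at a log2 ratio of -0.50, AARS2, the alanyl enzyme, at -0.45, VARS2, the valyl enzyme, at -0.39 and EARS2, the glutamyl enzyme, at -0.38. For the glutamine tRNA of mitochondria, EARS2 first attaches glutamate, which the GatCAB amidotransferase then converts. All 4 EARS2 probe sets were lower than with DMSO in both ratios, although not all of them after scaling to 1 median, from -0.71 to -0.19 under T-3764518 and from -0.52 to -0.20 in knockout cells. LARS2 and VARS2 were near their DMSO level in knockout cells, at -0.055 and 0.021, and AARS2 was at -0.16.

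PARS2, the prolyl enzyme, had signals of 328 with DMSO, 418 under T-3764518 and 243 in knockout cells, so its log2 ratios were 0.35 and -0.43. WARS2, the mitochondrial tryptophanyl enzyme, had signals of 561, 659 and 400.2 in its brighter probe set and 336, 329 and 252 in the other, for log2 ratios of 0.10 and -0.45. Both enzymes were thus lowest in knockout cells. The other mitochondrial enzymes, FARS2, HARS2, IARS2, MARS2, NARS2, RARS2 and SARS2, lay from -0.23 to 0.22 under T-3764518 and from -0.33 to 0.20 in knockout cells.

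**Figure D4:**
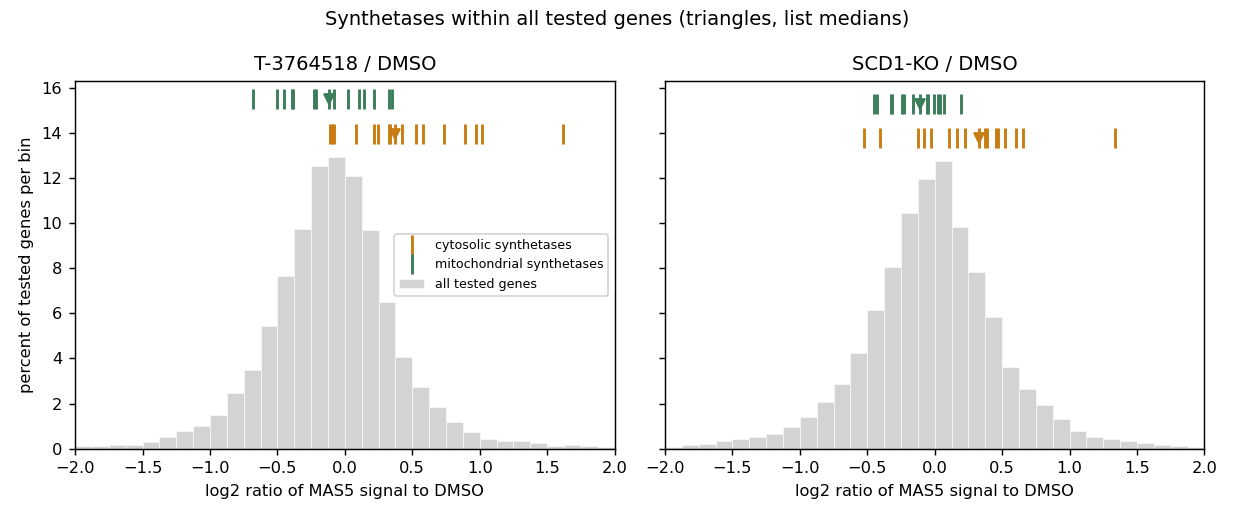
The bars give the percent of the 12321 tested genes in each bin of log2 ratio to SCD1-WT cells with DMSO, shown from -2 to 2, and the ticks above are the cytosolic (orange) and mitochondrial (green) synthetases with triangles at their medians. The cytosolic medians of 0.37 and 0.33 lie to the right of the median of all genes, and the mitochondrial medians of -0.12 and -0.11, which are above 0 when the arrays are scaled to 1 median, lie close to it.

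The compartments were then set against each other. This removes a scale factor common to a whole array, but not a shift that depends on signal. DMSO signals ran from 565 to 15009 for the cytosolic enzymes and from 218 to 6870 for the mitochondrial ones. The cytosolic median exceeded the mitochondrial one by 0.49 on the log2 scale under T-3764518, or 1.41-fold, and by 0.43 in knockout cells, or 1.35-fold. After a lowess correction, which fits the ratio to the signal, these differences were 0.46 and 0.39. For 14 amino acids both a cytosolic and a mitochondrial enzyme were measured, with EPRS1 counted for both glutamate and proline and the mean of FARSA and FARSB used for phenylalanine. With T-3764518 the cytosolic enzyme had the higher ratio for 14 of 14 amino acids, by 0.023 to 1.51 with a median of 0.71, and for 8 by at least 1.5-fold. The differences were widest for tryptophan at 1.51, alanine at 1.47 and cysteine at 1.41, while 6 were within the SD between probe sets of at least 1 of the enzymes, at 0.023 for asparagine, 0.10 for histidine, 0.11 for phenylalanine, 0.18 for proline, 0.20 for arginine and 0.25 for tyrosine. In knockout cells the cytosolic enzyme had the higher ratio for 11 of 14, with a median difference of 0.40. Tryptophan was again the widest at 1.79. Leucine, at -0.47, phenylalanine, at -0.085, and asparagine, at -0.028, went the other way, the last 2 by less than that SD. Among the 11, the difference for glutamate, at 0.29, was also within that SD, which is 0.41 for EARS2. The 14 amino acids are not replicates of a condition, since all are read from the same arrays.

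**Figure D5:**
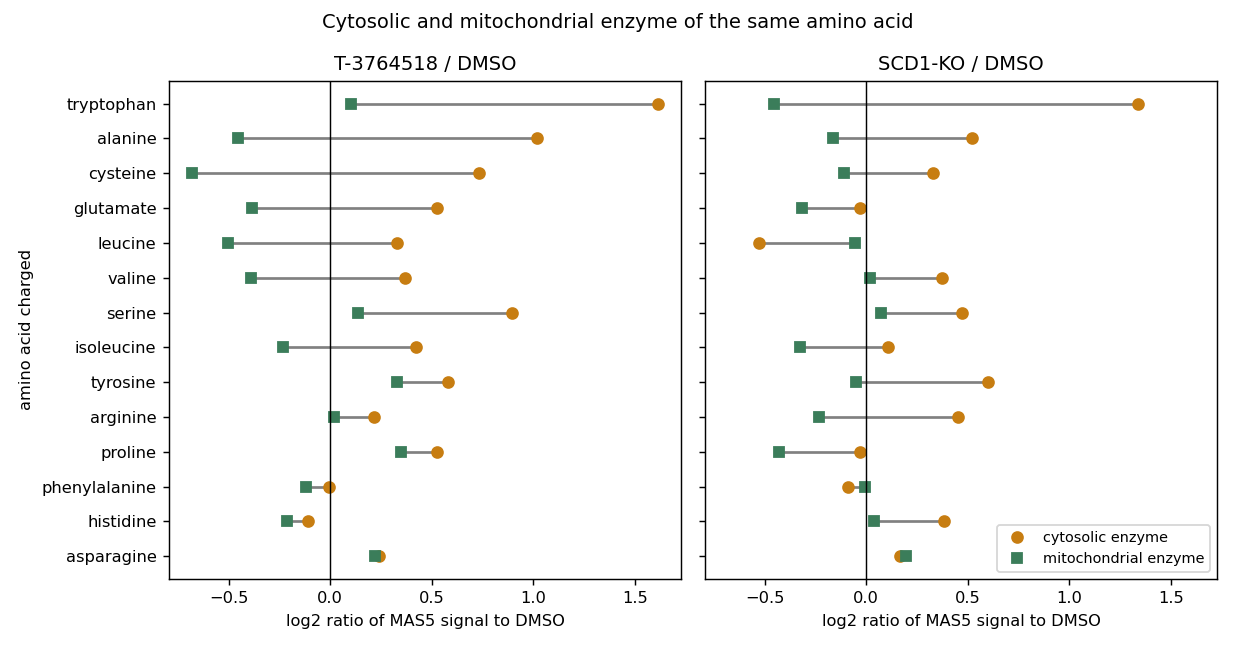
The x axis is the log2 ratio of the MAS5 signal to SCD1-WT cells with DMSO for the cytosolic (circle) and mitochondrial (square) enzyme of each of 14 amino acids, joined by a grey line. With T-3764518 the circle lies to the right of the square for all 14, and in knockout cells for 11.

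HARS1 and HARS2 are neighbours read in opposite directions, and in the RefSeq table their starts lie 85 bases apart, so that their promoter windows share 184 bases. Their log2 ratios were -0.11 and -0.21 under T-3764518 and 0.38 and 0.038 in knockout cells, which are close to each other under T-3764518 and 0.35 apart in knockout cells.

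Knockout cells and cells under T-3764518 were also compared with each other. The median log2 ratio of knockout cells to cells under T-3764518 was -0.31 for the cytosolic enzymes, -0.020 for the mitochondrial ones and 0.057 for all tested genes. Of the cytosolic enzymes, 5 of 17 had a ratio above 0 (55.2% of all tested genes), and of the mitochondrial ones 7 of 15. None of the 32 was at least 1.5-fold higher in knockout cells (14.2%), and at 2-fold 0 were higher (4.52%) or lower (3.10%). LARS1 was 1.88-fold lower and was the cytosolic enzyme called in this comparison (9.08% of all tested genes were at least 1.5-fold lower), and PARS2, at 1.72-fold lower, was the mitochondrial one. HARS1 was the cytosolic enzyme with the highest ratio, at 1.41-fold.

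Other genes of tRNA charging and use were read from the lists used. Over all tested genes, 6.62% were at least 1.5-fold higher and 12.3% lower under T-3764518, and 9.95% and 11.4% in knockout cells, and a list of a few genes without a call is near these shares. XPOT, which exports tRNA from the nucleus, had log2 ratios of 0.78 under T-3764518 and 0.59 in knockout cells, the latter just past the call, and was the gene called in both ratios among 4 of tRNA export and end processing. Among 4 genes of selenocysteine synthesis, SEPHS2, which makes the selenium donor, was 1.80-fold higher under T-3764518 and 1.15-fold in knockout cells, and SEPSECS, which makes selenocysteine on the tRNA, was 1.48-fold and 1.53-fold, so that 1 gene of the list was called in each ratio. Of 4 genes that make mitochondrial glutaminyl-tRNA and formylmethionyl-tRNA, 0 were called, and MTFMT, the formyltransferase, had log2 ratios of -0.58 and -0.21. None of the 4 measured cytosolic and 3 measured mitochondrial elongation factors was called. EEF1A2, a form of the factor that brings charged tRNA to the ribosome, had log2 ratios of -0.16 and -0.40, and TSFM, the mitochondrial nucleotide exchange factor, -0.37 and -0.27. Neither of the 2 measured proteins that correct mischarged tRNA was called, with DTD1, a D-aminoacyl-tRNA deacylase, at 0.14 and -0.44.

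The regulators of the ATF4 pathway were read on the same arrays, where the shares of all tested genes higher under T-3764518 were 6.62% at 1.5-fold and 2.18% at 2-fold, and in knockout cells 9.95% and 3.12%. ATF4 itself is controlled mainly in translation, and its mRNA was 1.35-fold under T-3764518 and 1.11-fold in knockout cells, at signals of 18938, 25551 and 20984. Of the 5 listed regulators, ATF3, DDIT3 and CEBPG were at least 2-fold higher under T-3764518, at 7.25-fold, 4.73-fold and 2.61-fold, and in knockout cells they were at 2.55-fold, 1.57-fold and 1.46-fold. Of 7 genes of eIF2α kinases and phosphatase subunits, 2 were called higher under T-3764518 and 2 in knockout cells. The median log2 ratios of the 7 were -0.15 and 0.22. Under T-3764518, 3 of the 7 lay above 0 (41.0% of all tested genes). EIF2AK1, EIF2AK2, EIF2AK4 and GCN1 lay below 0, from -0.30 to -0.15. PPP1R15A, which directs the phosphatase to eIF2α, was 3.37-fold and 2.08-fold higher. EIF2AK3, the kinase PERK, was 1.98-fold and 1.35-fold, and EIF2AK2, the kinase PKR, was called higher in knockout cells alone, at 1.65-fold. Of 5 genes of asparagine and serine synthesis, 2 were called under T-3764518 and 1 in knockout cells. PSAT1, an enzyme of serine synthesis, was at 1.73-fold and 1.69-fold, and ASNS, the asparagine synthetase, at 1.64-fold and 1.28-fold.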

How the data were processed

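The authors deposited 1 signal intensity for each of 54675 probe sets of the Human Genome U133 Plus 2.0 Array, on a linear scale, which the submitters' notes attribute to MAS5 (version not given in the sources used here). MAS5 subtracts background and scales each array to a common trimmed mean (500.1 here), so differences in total RNA are not visible. The dose and the vehicle of SCD1-KO cells come from the paper. Probe sets with 1 gene symbol in the platform annotation (41097, of which 41043 matched RefSeq genes by gene ID) were used, 1801 carried several and 11777 were not listed. Of 67 synthetase probe sets, 56 passed the filter (percentile 50 of mean log2 signal), and 15 of 32 enzymes rest on 1. Log2 ratios, gene medians and calls were computed with Python 3.11.15, numpy 2.4.6 and pandas 2.3.3, and tested on simulated data. The number of arrays, 1 per condition, limits the precision. Every measured synthetase is named, with all signals for those past 1.5-fold. TARS1, LARS1, VARS1, PARS2 and WARS2 were shown in more detail after their values were seen. So were ATF4, SEPSECS, EIF2AK1, EIF2AK2, EIF2AK3, EIF2AK4, GCN1, ASNS and the markers of epithelial and other cells. Of other lists, genes past 2-fold or else the one farthest from 0 were named. The members and lists were chosen with earlier results of these data known, and the promoter search was added after the values were seen.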

Additional observations from a re-analysis of the deposited data

How the results depend on the processing

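No paired analysis was possible because each condition has 1 array, and for the same reason no array could be left out. The cytosolic minus mitochondrial median stayed above 0 under all 10 alternatives, from 0.45 to 0.61 under T-3764518 and from 0.39 to 0.56 in knockout cells, and the cytosolic enzyme had the higher ratio for every amino acid measured under T-3764518. Scaling to 1 median raised the cytosolic medians to 0.65 and 0.47 and turned the mitochondrial ones to 0.16 and 0.032, where all tested genes had medians of 0.19 and 0.13. It put 11 cytosolic enzymes past 1.5-fold and 5 past 2-fold under T-3764518 and 6 past 1.5-fold in knockout cells. It also put 2 mitochondrial enzymes past 1.5-fold under T-3764518 (0 otherwise). All of these were higher. Of all tested genes, 15.9% were then at least 1.5-fold higher under T-3764518 and 15.0% in knockout cells. The lowess correction gave medians of 0.44 and -0.019 for cytosolic and mitochondrial enzymes under T-3764518. Quantile normalization left 1 cytosolic enzyme 2-fold higher under T-3764518. The shares of all tested genes at 2-fold were not computed under the alternatives. For T-3764518 the cytosolic median was 0.43 with a filter at percentile 75, the brightest probe set, or a mean over probe sets, and the difference 0.61 with the first or second of these. The brightest probe set gave 8 cytosolic enzymes at least 1.5-fold higher under T-3764518, where 7.09% of all tested genes were. Without probe sets marked _s_at or _x_at, which left 11 cytosolic enzymes, the SCD1-KO median was 0.45 and the difference 0.56. The count of mitochondrial enzymes 1.5-fold lower under T-3764518 was 2 without a filter (24.5% of all tested genes) and 0 under 7 others: each scaling, the stricter filter, an offset of 16.5, raised low signals and a call by every probe set. Under these the share of all tested genes was 4.92% to 11.2%, and it was not computed for the call by every probe set. Of 624 values of single enzymes, 42 moved by more than the SD between probe sets and 0 that were called changed sign. The cause of these shifts was not tested.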
